A study of Solanum lycopersicum with 27 samples.

Results

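The loci described here are 150 of the 34688 loci in a tomato leaf count table, chosen for a large difference between deficit and control in young leaf and a limited one in late mature leaf. Polyadenylated RNA was sequenced from leaves of Solanum lycopersicum cv MoneyMaker, wild type in both arms. Plants were 50 days old when water was withheld completely from the deficit arm, and the control arm went on being watered to soil capacity. Single leaflets of mature leaves were taken after 4, 5, 8 and 10 days in both arms, and whole developing leaves, called young here, after 10 days. The 27 libraries form 10 groups, 7 with 3 libraries and 3 with 2 libraries: mature control day 8, mature deficit day 8 and mature control day 10. The labels do not say whether the libraries of a group came from separate plants, so the tests measure the spread between these samples, which may in part be technical.

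Young leaves are still growing by cell division and cell expansion and import sugar, whereas mature leaves export it. When soil water runs short, abscisic acid rises, stomata close and growth of expanding leaves slows, while protective proteins and solutes are made. Leaves of different age on the same plant can therefore show different transcript changes under the same deficit.

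The loci were chosen by their CPM, the read count divided by the library's total and multiplied by 1000000. For every group the level was log2 of the mean CPM plus 1, and D is the level under deficit minus the level under control. Replicate 1 of mature deficit day 10 was left out of the choice, since it stands apart from its group. Its log2(CPM + 1) values correlated at r = 0.998 with both mature control libraries of day 10, and at 0.942 and 0.940 with the other deficit libraries of its group. The lowest correlation within any group, that library aside, was 0.994, and library totals ran from 14725924 to 19642202 counts. A mean of at least 1 CPM in mature leaf at days 8 and 10 in both arms left 15196 loci. An absolute D below 0.5 in mature leaf on both days left 5884. The 150 loci with the largest absolute D in young leaf were taken from these, 97 with a higher and 53 with a lower level under deficit. The last 2 loci inside had an absolute D of 0.84 each, and the first 2 outside had 0.83 each.

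None of the locus identifiers matched the RefSeq table of 41476 genes (assembly SLM_r2.1), so no gene name, role or sequence is attached to any locus. Only 2 loci with the largest rise and 2 with the largest fall are named, and the others are described as sets. Leaf age was taken from the labels and was not checked against marker genes. CPM values are not scaled to transcript length, so levels are compared between libraries and not between loci.

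In young leaf at day 10 the 97 higher loci had a median D of 0.98, from 0.84 to 3.03, and 45 of them had a D of at least 1. The median of their group means went from 11.7 CPM under control to 25.7 CPM under deficit. The 53 lower loci had a median D of -0.97, from -2.0 to -0.84, and 24 of them had a D of -1 or below. Their median group mean went from 18.7 CPM under control to 7.85 CPM under deficit. These values chose the loci and are a description. The same contrast fitted in edgeR with Benjamini-Hochberg adjustment called all 150. Of the 19072 tested loci 75.3% were called, 38.0% higher and 37.3% lower, and nothing is read from the count of chosen loci. All 150 loci passed the filter on low counts, and the smallest count in a young library was 11 among the higher and 10 among the lower loci. In whole leaves, fewer cells of a type and less RNA per cell cannot be told apart.

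These 150 loci were a small part of the young leaf response. Of the 15196 loci at or above the mature level limit, 4092 had an absolute D in young leaf at least as large as the smallest one chosen, and the 150 made up 3.67% of them. The median absolute D in young leaf was 0.47 over the 15196 loci and 0.22 over the 5884. Loci expressed too weakly in late mature leaf to be chosen numbered 1475 at the same D in young leaf, and 218 of them had a mean under 1 CPM in all 4 late mature groups.

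**Figure D1:**
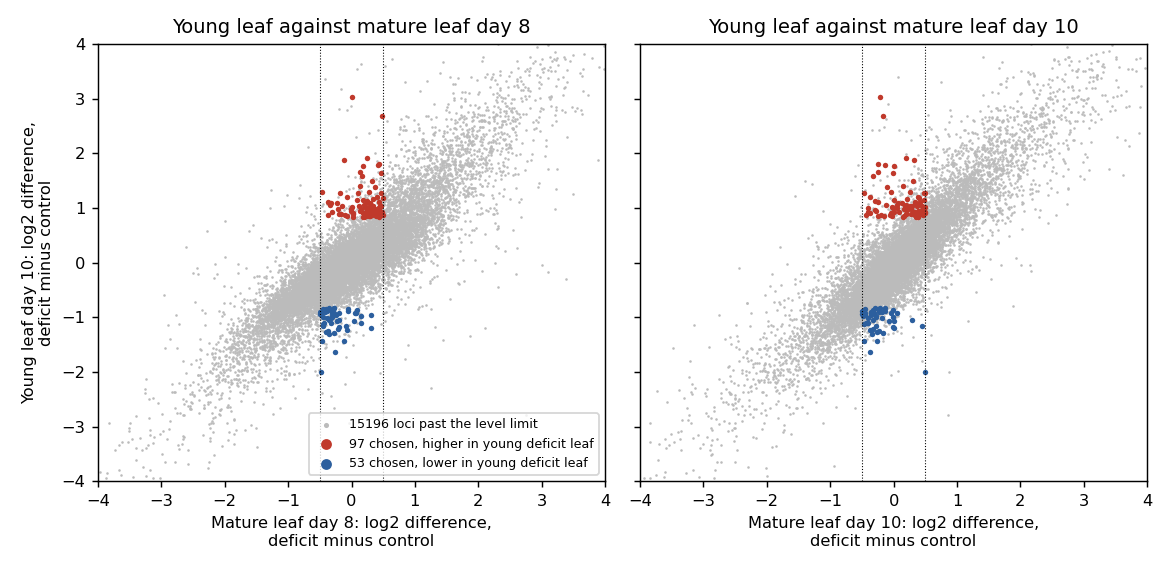
D (log2 difference of group mean CPM plus 1, deficit minus control) in young leaf at day 10 on the vertical axis against D in mature leaf at day 8 (left) and day 10 (right). Grey points are the 15196 loci past the level limit, red points the 97 and blue points the 53 chosen loci, dotted lines the limit of 0.5, and 138 loci lie outside the axes, which end at 4. The red points lie mostly right of 0 and the blue points mostly left of 0.

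The choice limited the late mature differences and did not set them to 0. In mature leaf at day 8, D had the young leaf sign at 79 of the 97 higher loci and at 45 of the 53 lower loci. At day 10 the numbers were 69 of 97 and 47 of 53. Over the 5884 loci D was above 0 at 44.5% on day 8 and at 57.0% on day 10. Median D was 0.27 at day 8 and 0.24 at day 10 for the higher loci, and -0.31 and -0.28 for the lower loci, against -0.05 and 0.05 over the 5884 loci. An absolute D of at least 0.4 on one of these days, close to the limit, was found at 39 higher and 25 lower loci. Only 22 of the 150 would have stayed with a limit of 0.25. These late mature values passed through the limit of the choice, so they are a description.

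In the late mature arms the quasi-likelihood test of edgeR (adjusted p by Benjamini-Hochberg) called 83 of the 150 loci at day 8 and 64 at day 10. Of all tested loci it called 72.5% at day 8, 37.7% higher and 34.8% lower, and 62.3% at day 10, 32.6% higher and 29.8% lower. The choice used both contrasts, so nothing is read from these shares. At day 8, 49 of the higher loci were called higher and 5 lower, and 27 of the lower loci were called lower and 2 higher. At day 10, 29 of the higher loci were called higher and 4 lower, and 29 of the lower loci were called lower and 2 higher. The test of the difference between leaf ages, made of the same contrasts, called 133 of the 150, against 21.6% of all tested loci. Of these, 88 were higher loci with a more positive difference in young leaf (10.8% of all tested loci) and 45 were lower loci with a more negative one (10.8%).

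Replicate 1 of mature deficit day 10, which the choice did not use, had the level of the control libraries at these loci. Its median distance from the mature control mean was 0.0058 for the higher and -0.0087 for the lower loci on the log2 scale. From the mean of the other 2 deficit libraries it was -0.25 and 0.28. It lay nearer to the control mean at 85 of 97 higher and 47 of 53 lower loci. Over all loci with a count, too, it correlated at r = 0.998 with both control libraries. The share over all loci was not counted, so these counts are not read as particular to the 150. With this library kept, the same rule would choose 150 loci of which 79 are the ones described here.

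Days 4 and 5 were not used in the choice and share no library with days 8 and 10, so the arms of mature leaf could be tested there. At day 4, 74 of the 150 loci were called between the arms (49.3%), against 31.0% of all 19072 loci. Of the 97 higher loci, 35 were called higher and 15 lower under deficit, while 47 did not pass the test. Of the 53 lower loci, 18 were called lower and 6 higher, and 29 did not pass. Over all tested loci 14.9% were called higher and 16.0% lower. The median log2 fold change at day 4 was 0.10 for the higher loci and -0.16 for the lower loci, beside -0.0026 over all tested loci. The median of the higher loci was 0.16 without control replicate 3 of day 4.

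More loci were called at day 5 than at day 4, among the 150 and among all tested loci alike. There 94 of the 150 loci were called (62.7%), against 43.5% of all loci. Among the 97 higher loci, 48 were called higher and 11 lower, and among the 53 lower loci, 31 were called lower and 4 higher. The shares over all loci were 21.8% higher and 21.8% lower. Median log2 fold changes were 0.33 for the higher and -0.36 for the lower loci, beside -0.01 over all tested loci. A change of at least 2-fold was called in the young leaf direction at 12 higher and 7 lower loci, where 6.76% of all tested loci were called at least 2-fold higher and 4.0% at least 2-fold lower. At 6 higher and 3 lower loci the called change at day 5 was as large as that in young leaf or larger. The share over all tested loci was not counted and the young leaf values chose the loci, so nothing is read from these counts.

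Called changes at days 4 and 5 together covered 76 of the 97 higher and 41 of the 53 lower loci, where 55.2% of all tested loci were called on at least 1 of these days. These calls go against the working description of the loci as responding in young leaf only. On both days and in the young leaf direction, 25 higher and 15 lower loci were called, where 7.77% of all tested loci were called higher and 8.88% lower on both days. Across the 4 mature days, days 8 and 10 included, 13 of the 150 loci, 9 higher and 4 lower, were called on no day, and 137 on at least 1, against 87.7% of all tested loci. The choice used days 8 and 10, so nothing is read from these 2 counts. Whether the arms difference itself changed from day 4 to day 5 was tested as an interaction. It was called at 45 of the 150 loci (30%), near the 26% of all tested loci. Among these, 25 higher loci (25.8%) were more positive and 13 lower loci (24.5%) more negative at day 5. Of all tested loci 14.4% were more positive and 11.6% more negative. A further 5 higher loci were more negative and 2 lower loci more positive.

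With replicate 1 of mature deficit day 10 in the fit, under its label, 54 of the 150 loci were called at day 4, against 11.8% of all tested loci, and 86 at day 5, against 27.8%. No fit without one of the compared libraries moved the count at either day by more than 1.5 times.

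**Figure D2:**
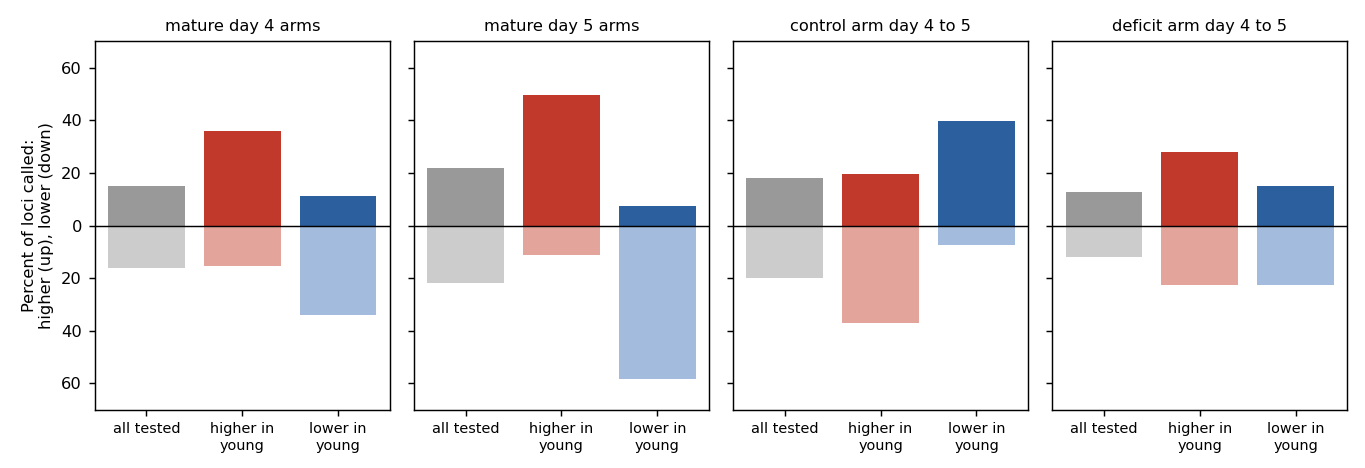
Percent of loci called by edgeR's quasi-likelihood test (adjusted p below 0.05) in 4 comparisons of libraries that the choice of loci did not use, with loci called higher drawn upward and loci called lower drawn downward. Grey bars are all 19072 tested loci, red bars the 97 loci higher and blue bars the 53 loci lower in young deficit leaf. At day 5 the red bar reaches 49.5% upward and the blue bar 58.5% downward, against 21.8% each way for all loci.

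The change from day 4 to day 5 was then tested within each arm. In the control arm 80 of the 150 loci were called (53.3%), against 37.8% of all loci. There the higher loci were called lower at day 5 in 36 cases and higher in 19, and the lower loci were called higher in 21 cases and lower in 4. All tested loci were called higher in 17.9% and lower in 19.9%. Median log2 fold changes over the day were -0.17 and 0.22 for the higher and lower loci, opposite in sign to their young leaf differences.

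In the deficit arm 69 loci were called (46.0%), against 24.7% of all loci. The higher loci were called higher in 27 cases and lower in 22, and the lower loci higher in 8 and lower in 12. The shares of all tested loci were 12.6% higher and 12% lower. Median log2 fold changes were 0.09 and 0.0033. Without deficit replicate 3 of day 5 the median of the higher loci was 0.03, and that of the lower loci ran from 0.011 to 0.026 without one library. Each day was a separate collection, so day and collection cannot be told apart within an arm, and these comparisons share their libraries with the arms comparisons of days 4 and 5. With all 27 libraries in the fit, 68 loci were called in the control arm, against 19.2% of all tested loci, and 49 in the deficit arm, against 10.7%.

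Loci like the chosen ones give the scale. Among the other 5734 loci at or past both mature limits, with smaller differences in young leaf, 26.5% were called between the arms at day 4 and 32.5% at day 5. Of the other 3942 loci with as large a D in young leaf but with a larger difference in late mature leaf, 46.6% were called at day 4 and 73.3% at day 5. The chosen loci, at 49.3% and 62.7%, lay above the first set on both days. They were above the second set at day 4 and below it at day 5. Calls at day 5 went in the young leaf direction in 84.0% of the called chosen loci, in 73.5% of the first set and in 92.2% of the second. From day 4 to day 5 in the control arm, 53.3% of the chosen loci were called, 23.1% of the first set and 67.9% of the second. Of these calls 28.75%, 34.7% and 9.82% went in the young leaf direction. The control arm change against the young leaf sign was thus found in both other sets and was strongest in the second. In the deficit arm 46.0%, 19.6% and 39.4% were called. These shares are descriptions, and the differences between the sets were not tested.

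**Figure D3:**
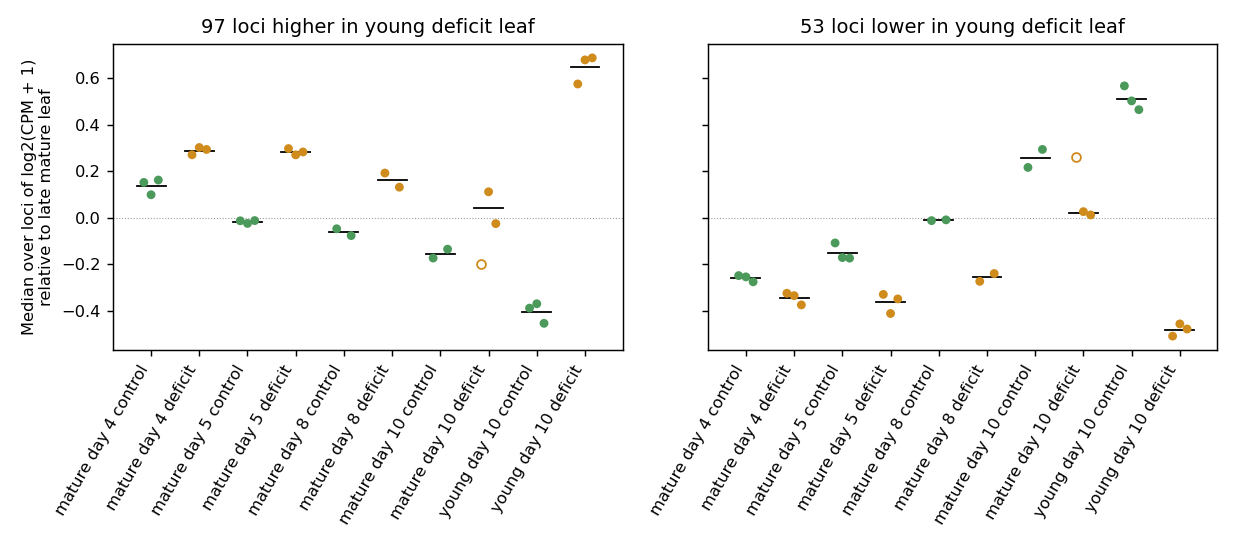
Median over the 97 higher loci (left) and the 53 lower loci (right) of log2(CPM + 1), relative to each locus's mean over the 8 late mature libraries used in the choice. Each point is a library (green control, orange deficit), bars are group means, and the open circle is replicate 1 of mature deficit day 10, which is outside its group's mean. The 2 young groups are the farthest apart, on opposite sides of 0 in both panels.

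Seen by library, the young control and young deficit leaves lay on either side of the mature ones. The median of the higher loci, relative to late mature leaf, was -0.40 ± 0.04 (SD, n = 3) in young control and 0.65 ± 0.06 (SD, n = 3) in young deficit libraries. The lower loci had 0.51 ± 0.05 (SD, n = 3) and -0.48 ± 0.03 (SD, n = 3). These libraries chose the loci, which favours young groups on opposite sides of mature leaf, so the values are a description.

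In mature leaf the higher loci stood at 0.14 ± 0.03 (SD, n = 3) under control and 0.29 ± 0.02 (SD, n = 3) under deficit at day 4. At day 5 they stood at -0.02 ± 0.01 (SD, n = 3) and 0.28 ± 0.01 (SD, n = 3). In control libraries the lower loci stood at -0.26 ± 0.01 (SD, n = 3) on day 4 and at -0.15 ± 0.04 (SD, n = 3) on day 5. In deficit libraries they were at -0.34 ± 0.03 (SD, n = 3) and -0.36 ± 0.04 (SD, n = 3). Over the whole course the control arm of mature leaf had lower values on each later day at the higher loci, ending at -0.15 ± 0.03 (SD, n = 2) at day 10, and higher values at the lower loci, ending at 0.26 ± 0.05 (SD, n = 2). After day 5 the deficit arm moved the same way. Its higher loci stood at 0.16 ± 0.04 (SD, n = 2) at day 8, and at 0.11 and -0.02 in replicates 2 and 3 of day 10. Its lower loci stood at -0.26 ± 0.02 (SD, n = 2) at day 8, and at 0.03 and 0.01 in those replicates. The 5884 loci as a whole stayed between -0.11 and 0.07 in all 27 libraries.

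The leaf age difference at day 10 was examined in each arm, as the level in young minus that in mature leaf. Young samples were whole leaves and mature samples single leaflets, so leaf age and sampled part cannot be told apart. At the higher loci its median went from -0.22 under control to 0.62 under deficit, and at the lower loci from 0.24 to -0.43. Over the 5884 loci the medians were -0.02 and -0.11. Young control leaf was below mature control leaf at 66 of the 97 higher loci, and young deficit leaf was below mature deficit leaf at 15. At the lower loci the numbers were 13 and 46 of 53. All 4 groups entered the choice, so both medians and the shift between them are shaped by it and are given as a description.

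Leaf ages were sorted as close or apart in each arm, again as a description, since the choice forces the age difference to change between arms. They were close under control and apart under deficit at 46 higher loci (47.4%) and 21 lower loci (39.6%), taking 0.5 on the log2 scale as the limit. The reverse pattern, with leaf ages apart under control and close under deficit, was found at 20 higher (20.6%) and 11 lower loci (20.8%). At these loci young and mature leaf under deficit were within 0.5 of each other. Leaf ages stayed within 0.5 in both arms at 19 higher and 15 lower loci, and stayed apart on the same side at 7 and 6. At 5 higher loci the young leaf went from below to above the mature leaf by more than 0.5 each, and no lower locus did the opposite. Of the 5884 loci, 7.78% were close under control only and 3.76% close under deficit only. A further 85.3% were close in both arms, 3.06% apart on the same side and 0.10% apart on opposite sides.

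**Figure D4:**
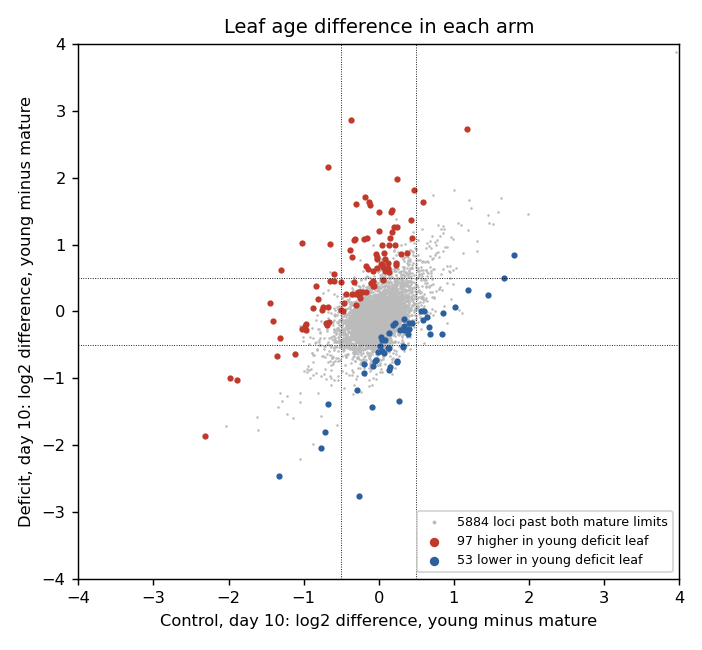
Leaf age difference at day 10 (log2 of group mean CPM plus 1, young minus mature) under deficit against that under control. Grey points are the 5884 loci past both mature limits, red and blue points the 97 higher and 53 lower loci, and dotted lines mark 0.5 each way. Red points gather above and blue points below the grey cloud, with 46 red and 21 blue points close to 0 across and beyond 0.5 up or down.

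The largest rise in young leaf among the 150 loci was at Solyc12g098590.3. In young leaf its 3 control libraries had 1.74, 1.68 and 1.69 CPM, and its 3 deficit libraries had 18.2, 24.1 and 20.8 CPM, a D of 3.03. Young groups did not overlap, and every young deficit library was above every mature library. In mature control libraries it had 3.53 and 3.04 CPM at day 8 and 2.61 and 2.38 CPM at day 10. Under deficit it had 2.89 and 3.73 CPM at day 8, and 2.70 and 1.36 CPM in replicates 2 and 3 of day 10, with 3.15 CPM in the replicate left out. Arms of late mature leaf overlapped at day 8 and at day 10, and edgeR's quasi-likelihood test called neither day (adjusted p = 0.87 and 0.31).

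Earlier, mature leaf differed between arms at this locus. Control libraries had 2, 0 and 3 counts at day 4 and 2, 3 and 2 counts at day 5. Deficit libraries had 27, 34 and 42 counts at day 4 and 22, 30 and 23 counts at day 5, with no overlap. Summed over libraries the ratio of deficit to control was 22 at day 4 (exact 95% interval 9.13 to 69.2, counting error only) and 11.2 at day 5 (5.18 to 28.8). By edgeR's quasi-likelihood test the adjusted p was 7.70e-09 at day 4 and 2.03e-07 at day 5. Thus the locus was low in early control leaf and higher under deficit there, whereas in late mature leaf the arms overlapped. The mature control mean was 0.12 CPM at day 5 and 3.28 CPM at day 8. The latter was above the deficit means of 1.95 CPM at day 4 and 1.38 CPM at day 5.

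The other named higher locus, Solyc09g082660.3, had a course of the same form. Young control libraries had 1.63, 1.62 and 0.844 CPM and young deficit libraries had 14.3, 17.2 and 11.2 CPM, a D of 2.69, with no overlap. Mature control libraries had 1.61 and 1.71 CPM at day 8 and 2.93 and 2.65 CPM at day 10. Mature deficit libraries had 3.35 and 2.11 CPM at day 8, above both controls, and 2.75 and 2.04 CPM in replicates 2 and 3 of day 10, with 2.73 CPM in the replicate left out. The arms overlapped at day 10 but not at day 8, where D was 0.49, just inside the limit. By edgeR's quasi-likelihood test the log2 fold change at day 8 was 0.75 (SE 0.31, adjusted p = 0.034), and day 10 was not called (adjusted p = 0.44). Both days entered the choice, so these values are a description.

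At day 4 it had 4, 0 and 3 counts in control and 23, 34 and 35 counts in deficit libraries. At day 5 it had 2, 1 and 1 counts in control and 13, 19 and 18 counts in deficit libraries. No library of one arm reached the other on either day. The ratio of summed counts was 14.0 at day 4 (exact 95% interval 6.55 to 35.9) and 13.1 at day 5 (4.80 to 49.8), with adjusted p of 4.39e-07 and 1.47e-05 in edgeR's quasi-likelihood test. Within the deficit arm it fell from day 4 to day 5 by 0.86 on the log2 scale (SE 0.31, edgeR adjusted p = 0.041). Its adjusted p ran from 0.021 to 0.18 over the alternatives. The call was lost with all 27 libraries, in DESeq2 and in 4 of the 6 fits without a compared library, all but those without deficit replicate 1 of day 4 or replicate 3 of day 5.

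The largest fall among the 150 was at Solyc10g055390.2. Young control libraries had 25.7, 24.2 and 24.5 CPM and young deficit libraries had 5.48, 5.06 and 5.74 CPM, a D of -2.0. Every young deficit library was below every other library of the series at this locus. In mature control leaf it had 35.6 and 32.0 CPM at day 8 and 30.3 and 29.4 CPM at day 10. Mature deficit leaf had 24.1 and 23.9 CPM at day 8, and 41.3 and 43.5 CPM in replicates 2 and 3 of day 10, with 28.3 CPM in the replicate left out. In late mature leaf it was thus lower under deficit at day 8 and, that replicate aside, higher at day 10, with D of -0.48 and 0.49, both just inside the limit. Both differences were called by edgeR's quasi-likelihood test, at -0.46 (adjusted p = 2.95e-05) and 0.44 (adjusted p = 4.42e-05) on the log2 scale. The choice used both days, so these values are a description.

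In early mature leaf the locus was lower under deficit at day 4. It had 20.7, 19.0 and 19.8 CPM in control and 15.6, 14.9 and 15 CPM in deficit libraries, with a log2 fold change of -0.46 (SE 0.08, edgeR adjusted p = 2.63e-05). At day 5 the arms overlapped, at 15.6, 13.6 and 14.9 CPM under control and 16.7, 15.7 and 14.8 CPM under deficit. There the log2 fold change was -0.0026 (SE 0.08), and its sign changed with the scaling. The arms difference moved by 0.46 from day 4 to day 5 (SE 0.11, edgeR adjusted p = 0.0019), while the control libraries fell by 0.36 (SE 0.08, edgeR adjusted p = 3.46e-04).

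The other named lower locus was Solyc01g097240.3, with 38.6, 53.4 and 38.9 CPM in young control and 13.8, 12 and 14.3 CPM in young deficit libraries, a D of -1.64 with no overlap. Mature control libraries had 20.7 and 27.6 CPM at day 8 and 82.9 and 67.8 CPM at day 10. Mature deficit libraries had 22.2 and 18.0 CPM at day 8, and 55.1 and 61.0 CPM in replicates 2 and 3 of day 10, with 91.2 CPM in the replicate left out. Arms overlapped at day 8, and at day 10 only through the replicate left out.

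Both early days showed a lower level under deficit than under control at this locus. At day 4 it had 39.3, 34.8 and 33.1 CPM in control and 24.3, 21.6 and 27.6 CPM in deficit libraries, with a log2 fold change of -0.62 (SE 0.16, edgeR adjusted p = 0.0054). At day 5 it had 55.8, 52.1 and 64.3 CPM in control and 30.9, 36.2 and 24.7 CPM in deficit libraries, with a log2 fold change of -1.01 (SE 0.15, edgeR adjusted p = 1.47e-05). Within the control arm it rose by 0.76 on the log2 scale from day 4 to day 5 (SE 0.15, edgeR adjusted p = 4.08e-04). Arms did not overlap on either day, and both days had the direction seen in young leaf.

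**Figure D5:**
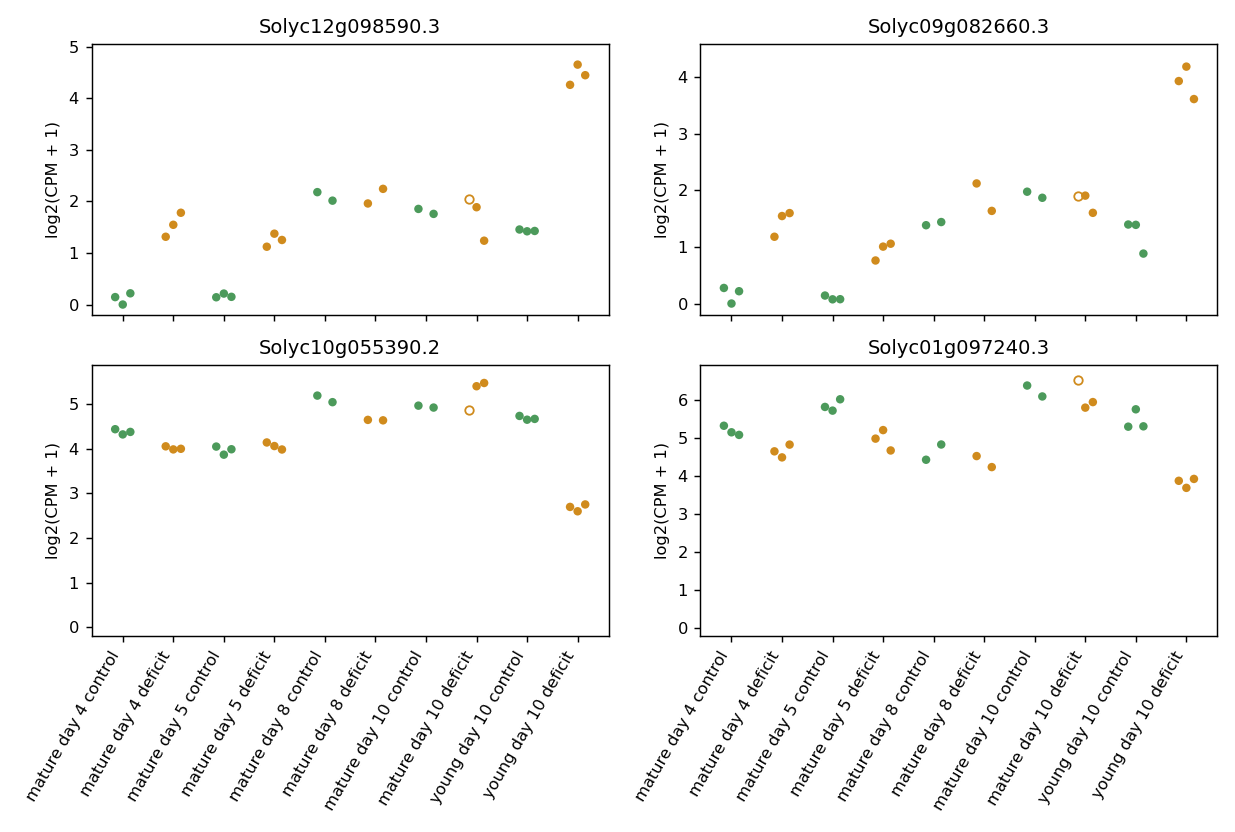
Level of the 4 named loci as log2(CPM + 1) in each of the 27 libraries (green control, orange deficit, open circle replicate 1 of mature deficit day 10), with a panel for each locus. Solyc12g098590.3 and Solyc09g082660.3 are near 0 in control leaves of days 4 and 5 and highest in young deficit leaf, and Solyc10g055390.2 and Solyc01g097240.3 are lowest in young deficit leaf.

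The identifiers carry a chromosome number, which was not used in the choice. Chromosome 8 held 20 of the 150 loci (13.3%), where 7.60% of the 5884 loci lie, and 12 of these 20 were among the 53 lower loci. Chromosome 10 held 16 (10.7%, against 6.97%), 8 of them lower. Chromosome 5 held 6 (4.0%, against 6.83%), none of them lower. The other chromosomes had between 6 and 19 loci each. Within 5 rows of each other in the table lay 5 pairs of chosen loci, 3 of which moved the same way in young leaf. These counts are descriptions with no test.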

How the data were processed

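The authors deposited whole-number read counts per locus, which were taken as raw counts because the column totals differ. Per the labels' protocols, RNA was extracted with TriZol and a provider made and sequenced paired-end libraries, and per the submitters' processing notes DESeq2 was used. The aligner, counting tool, genome build, annotation and use of strand are not given in the sources used here, so reads shared by near-identical or overlapping loci may be misassigned. The 150 loci, the sets and the tests were chosen with earlier results of these data known. Columns were matched to libraries by description and groups taken from titles.

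Counts of 26 libraries, replicate 1 of mature deficit day 10 aside, were fitted in edgeR 4.0.16 (R 4.3.3, limma 3.58.1) with a coefficient per group. The filterByExpr function kept 19072 loci with 99.97% of the counts, and TMM factors ran from 0.935 to 1.06. Quasi-likelihood F tests were adjusted by Benjamini-Hochberg over all 19072 loci, with 0.05 as the limit for a call. Simulated counts drawn from the fit's own means and spreads, with 2-fold changes at well-expressed loci, were tested for the day 4 arms only. They do not check weakly expressed loci, other comparisons or real replicates. Standard errors are the fold change over the root of F. Named loci are, by D in young leaf, 2 from each end of the 150, with a mean of at least 5 CPM in a young group. Chi-square over its degrees of freedom was at least 2.93 between replicates, so none was counted as a repeat. Intervals cover counting error only. Alternatives were RLE scaling, DESeq2 1.42.0, other filters, all 27 libraries, only the compared groups, a replicate block, leaving out each library, and changes to the rule of choice. The planned counts of gene lists were not run, since loci carry no names.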

Additional observations from a re-analysis of the deposited data

Results flagged for a closer look

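The difference between the arms was tested between leaf ages at day 10 and between days 4 and 5 for the 4 named loci, and 5 of these tests passed in edgeR's quasi-likelihood test. The leaf age tests rest on the values that chose the loci and are given as a description. Between young and mature leaf the arms difference was 3.92 higher in young leaf on the log2 scale at Solyc12g098590.3 (adjusted p = 2.98e-10). At Solyc09g082660.3 it was 3.63 higher (adjusted p = 1.84e-08). It was -2.66 at Solyc10g055390.2 (adjusted p = 2.17e-15) and -1.30 at Solyc01g097240.3 (adjusted p = 6.11e-04), both lower in young leaf. Between days 4 and 5, whose libraries the choice did not use, the arms difference changed by 0.46 at Solyc10g055390.2 (adjusted p = 0.0019).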

How the results depend on the processing

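The counts of loci called at day 4, at day 5, between days within each arm, in young leaf and between leaf ages stayed within 1.5 times of those reported under every alternative run. Without each compared library in turn the counts ran from 59 to 73 at day 4, 87 to 92 at day 5, 70 to 78 in the control arm, 54 to 61 in the deficit arm and 114 to 130 between leaf ages. Medians of log2 fold changes near 0 moved more, the higher loci running from 0.066 to 0.16 at day 4 and from 0.03 to 0.10 in the deficit arm without one library. The choice of loci was less stable. Of the 150 loci, 77 would be chosen again with 5 CPM added before the log, 79 with all 27 libraries, 22 with a limit of 0.25 in mature leaf, and 119 to 140 without one library. The day 5 log2 fold change of Solyc10g055390.2, near 0 throughout, turned positive with RLE scaling (0.016), a mean CPM of at least 1 (0.012), all 27 libraries (0.0091), only the compared groups (0.0066) and DESeq2 (0.016), and ran from -0.042 to 0.053 without one library. That of Solyc12g098590.3 in the control arm, which rests on 0 to 3 counts a library, ran from -0.026 to 1.20 without one library. Same-numbered libraries of the arms did not all deviate together (r from -0.14 to 0.16), though at day 4 every library correlated best with its own number. With a replicate block 74 loci were called at day 4, 95 at day 5, 81 in the control arm, 68 in the deficit arm, 150 in young leaf and 135 between leaf ages. Depth limits the early control values of the 2 named loci that rose, which are 4 counts or fewer in every library.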
